A study of Mus musculus with 12 samples.

Results

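Accessible chromatin was examined at 41 genes of the cell cycle and of DNA replication in RAW264.7, a line of mouse macrophages that divides in culture. The assay was ATAC-seq, in which a transposase cuts and tags DNA that is not wrapped tightly, and the data are the lists of peaks that were called in each library. Peaks of all 12 lists that overlapped or touched were merged, regions present in 2 or more lists were kept, and those within 10 kb of the span of a listed gene were taken. All 41 genes were found in the RefSeq gene table of the build, and they had 177 of the 76042 regions. Of these 177 regions, 93 were called in all 12 libraries and 84 were not, including 32 found in only 2 or 3 lists.

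The cells came from stable lines in which doxycycline switches on either Nur77 (the nuclear receptor gene Nr4a1) or, in the control line, green fluorescent protein (GFP). Every group, the controls included, had received 1 µg/ml doxycycline for 18 h. Each line was then studied without stimulation or after 1 h with lipopolysaccharide (LPS, 500 ng/ml), part of the bacterial outer membrane and a macrophage activator, with 3 libraries in each of the 4 groups. The labels do not say whether a line is a clone or whether the replicates are separate cultures, so p-values measure the spread between these libraries, which may be technical.

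The genes were ordered by role. Origins of replication are licensed when the origin recognition complex (Orc1), Cdc6 and Cdt1 load the ring of Mcm2 to Mcm7 onto DNA, and Mcm10, Cdc45 and the sliding clamp Pcna act when the forks start. Entry into this phase is governed by E2F transcription factors (E2f1, E2f2, E2f3, E2f4, E2f6, E2f7 and E2f8). The pocket proteins Rb1 and Rbl1 bind and restrain members of this family until cyclin-dependent kinases phosphorylate the pocket proteins. E2f6, E2f7 and E2f8 are not bound in this way. The kinases (Cdk1, Cdk2, Cdk4, Cdk6) work with cyclins (Ccna2, Ccnb1, Ccnb2, Ccne1, Ccne2) and the activating phosphatase Cdc25a. Aurka, Aurkb, Plk1, Bub1, Mki67, Top2a and Foxm1 act in or mark division itself, and Cdkn1b, Cdkn2a and Cdkn2c encode inhibitors of the kinases. As background, the replication genes are classic E2F targets, whereas many mitotic genes carry a CCAAT box, the site of the factor NF-Y, together with a cell cycle homology region (CHR) bound by the DREAM and MuvB complexes.

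The promoters of these genes carry those letters more often than promoters in general, and 8 are shown because they stand for both types and because several lie in regions whose rank is described further on. Each sequence is the 250 bases before the transcription start, 5′ to 3′ on the strand of the gene, from RefSeq on GRCm38.p6. Capitals mark matches, on either strand, to the E2F letters TTTCGCGC, TTTGGCGC, TTTCCCGC or TTTGGCGG, to the CHR letters TTTGAA or TTCGAA, or to CCAAT.
Mcm5, chr8:75109259-75109508, plus strand: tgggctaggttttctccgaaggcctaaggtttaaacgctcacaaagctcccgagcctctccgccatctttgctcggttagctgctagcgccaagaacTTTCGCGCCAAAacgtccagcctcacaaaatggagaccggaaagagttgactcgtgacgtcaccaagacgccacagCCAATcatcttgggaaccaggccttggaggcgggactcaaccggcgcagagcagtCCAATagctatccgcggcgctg
Mcm6, chr1:128359706-128359955, minus strand: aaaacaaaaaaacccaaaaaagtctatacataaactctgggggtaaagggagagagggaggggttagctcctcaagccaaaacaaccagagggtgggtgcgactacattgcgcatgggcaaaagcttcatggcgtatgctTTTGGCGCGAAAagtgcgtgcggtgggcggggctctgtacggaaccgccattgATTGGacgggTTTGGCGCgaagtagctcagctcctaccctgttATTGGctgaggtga
E2f7, chr10:110745189-110745438, plus strand: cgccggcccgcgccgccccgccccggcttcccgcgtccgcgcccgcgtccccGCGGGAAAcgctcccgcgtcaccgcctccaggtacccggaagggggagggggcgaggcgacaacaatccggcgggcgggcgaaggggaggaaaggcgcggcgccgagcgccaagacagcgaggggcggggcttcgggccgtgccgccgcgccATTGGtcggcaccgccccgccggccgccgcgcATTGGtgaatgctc
Cdk2, chr10:128705052-128705301, minus strand: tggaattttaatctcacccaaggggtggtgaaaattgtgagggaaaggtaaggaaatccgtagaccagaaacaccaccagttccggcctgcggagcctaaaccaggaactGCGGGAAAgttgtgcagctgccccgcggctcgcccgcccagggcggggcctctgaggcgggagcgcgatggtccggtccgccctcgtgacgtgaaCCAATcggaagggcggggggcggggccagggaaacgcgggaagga
Cdk1, chr10:69352913-69353162, minus strand: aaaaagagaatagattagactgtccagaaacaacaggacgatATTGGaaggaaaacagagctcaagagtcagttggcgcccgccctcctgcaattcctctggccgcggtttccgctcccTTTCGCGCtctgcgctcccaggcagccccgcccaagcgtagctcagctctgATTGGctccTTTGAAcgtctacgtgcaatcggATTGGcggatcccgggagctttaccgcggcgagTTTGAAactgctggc
Ccnb2, chr9:70421555-70421804, minus strand: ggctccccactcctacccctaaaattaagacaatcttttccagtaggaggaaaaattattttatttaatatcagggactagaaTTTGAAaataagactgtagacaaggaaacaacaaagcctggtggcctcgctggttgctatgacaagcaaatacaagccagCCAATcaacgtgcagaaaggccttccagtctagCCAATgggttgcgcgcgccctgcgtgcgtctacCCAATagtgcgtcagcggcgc
Top2a, chr11:99024190-99024439, minus strand: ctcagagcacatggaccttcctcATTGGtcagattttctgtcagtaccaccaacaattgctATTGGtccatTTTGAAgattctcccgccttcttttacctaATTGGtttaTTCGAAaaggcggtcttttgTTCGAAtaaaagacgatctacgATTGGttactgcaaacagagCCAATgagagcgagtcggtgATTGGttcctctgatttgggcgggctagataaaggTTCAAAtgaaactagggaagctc
Mki67, chr7:135716380-135716629, minus strand: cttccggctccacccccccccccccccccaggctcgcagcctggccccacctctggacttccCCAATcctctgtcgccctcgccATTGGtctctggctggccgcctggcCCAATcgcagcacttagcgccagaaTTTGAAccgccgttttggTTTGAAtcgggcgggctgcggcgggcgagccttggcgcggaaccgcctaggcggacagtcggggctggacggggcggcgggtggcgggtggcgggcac
Mcm5 and Mcm6 show E2F letters on both strands in overlapping matches, read as a single run of capitals. E2f7 and Cdk2 have 1 E2F match each, and Cdk1 has E2F letters, CHR letters and CCAAT boxes in the same 250 bases. Ccnb2, Top2a and Mki67 have CHR letters and CCAAT boxes but no E2F match.

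In windows from 250 bases before to 50 bases after the start, 34 of the 41 genes had a sequence in the table. E2F letters were found for 15 of them (44.1%), against 3.44% of 17492 protein-coding genes and 5.5% of the 8616 whose window overlapped a region called in all 12 libraries. CCAAT was found for 26 of the 34 (76.5%), against 42.3% of all protein-coding genes. CHR letters together with CCAAT were found for 13 genes (38.2%), against 8.22% of all. E2F letters were found for 7 of 11 licensing and helicase genes, 4 of 7 E2F and pocket protein genes, 3 of 8 cyclin and kinase genes and 1 of 3 inhibitor genes. CHR letters with CCAAT were found for 3, 3, 2 and 0 genes of the same roles. All 5 mitotic genes with a sequence (Aurka, Plk1, Bub1, Mki67 and Top2a) had CHR letters with CCAAT and none had E2F letters. A match describes the letters only, and these shares carry no test.

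Open chromatin over the start was the rule. Of the 34 genes with a start in the table, 33 (97.1%) had a region over it that was called in all 12 libraries, whereas 49.3% of all protein-coding genes did. Cdkn2a was the exception. The other 7 genes (Mcm4, E2f4, Ccna2, Ccne2, Rb1, Aurkb and Foxm1) had no start in the table, and each had a region touching the gene that was called in all 12 libraries. Among regions of any position, 52.5% of those at the 41 genes were called in all 12 libraries, against 34.7% of all regions. The strongest point of a start region, its summit, lay at a median of -69.5 bp from the start, with 22 of 33 upstream of it and 22 within 150 bp. Between libraries the summit of a start region moved over a median range of 87 bp. In 5 cases (Mcm7, Cdk6, Cdc45, Orc1 and Aurka) the region also covered the start of a neighbouring gene, Ap4m1, Gm36470, Ufd1, Prpf38a and Cstf1 respectively.

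To compare libraries whose lists run from 36184 to 81467 peaks, each region called in all 12 was given its percentile among the 26378 such regions of the same library, ordered by the authors' -log10 q of its strongest peak. A value of 0 is the weakest and 100 the strongest, so a difference is one of rank and not of signal. The median start region of the 33 genes stood at 81.9, against 72.6 for all start regions.

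**Figure D1:**
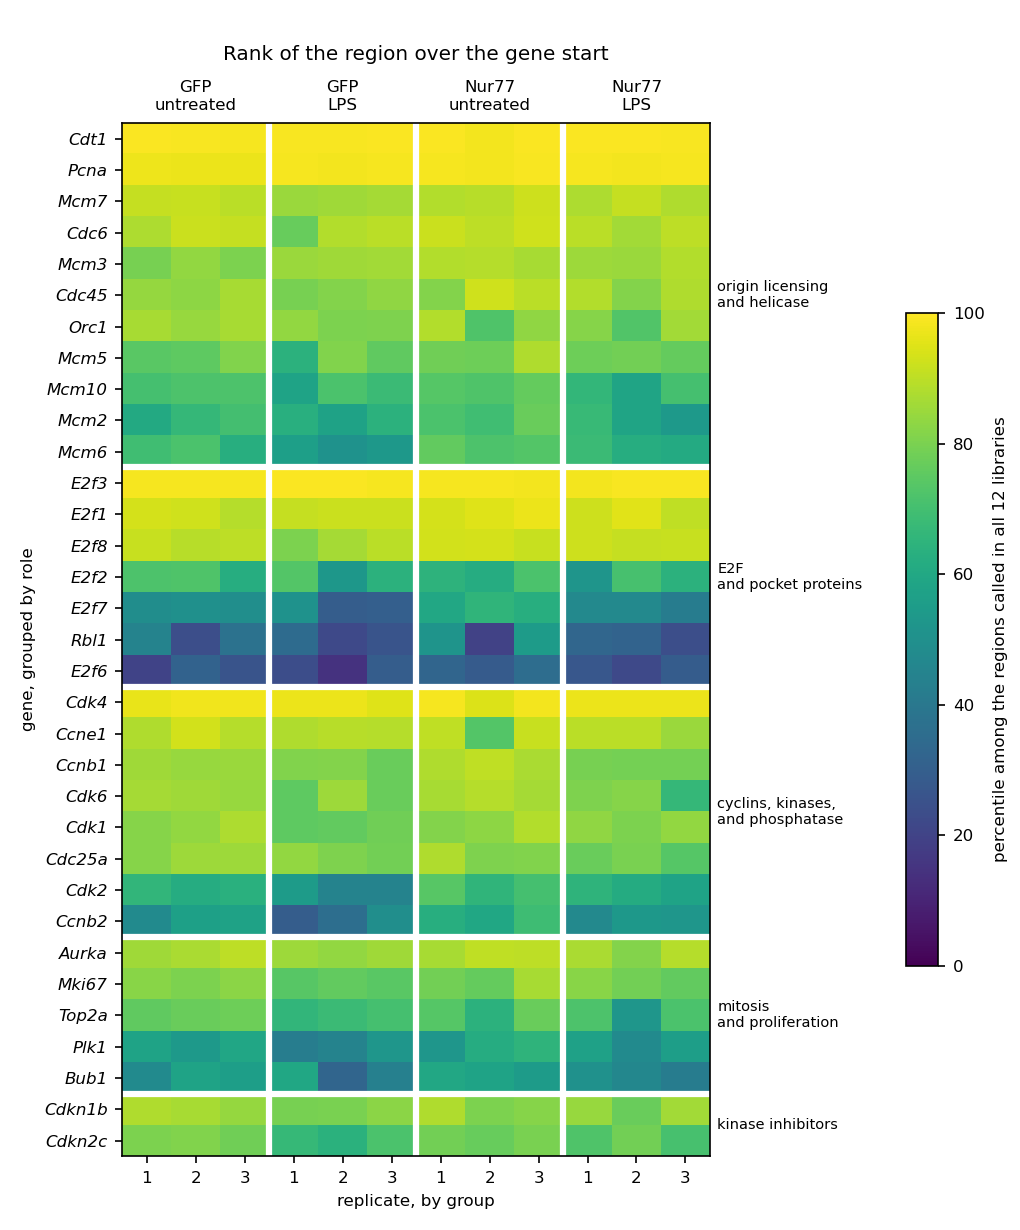
Percentile of the region over the gene start (colour, 0 to 100) for 33 genes in rows grouped by role and 12 libraries in columns grouped by line and treatment. Cdt1, Pcna, E2f3 and Cdk4 are near the top of every library. E2f6 is low in every library, and Rbl1 is low in most but near the middle of the scale in some untreated libraries. Mcm6, Cdk2 and Ccnb2 have lower means with LPS in each line, with single libraries that overlap.

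The strongest starts belonged to different roles. The start of Cdt1 (chr8:122564091-122569861) stood at 99.6, 99.1 and 98.8 in untreated GFP cells, 99.0, 99.2 and 99.3 in GFP cells with LPS, 99.3, 98.2 and 99.4 in untreated Nur77 cells and 99.6, 99.4 and 99.2 in Nur77 cells with LPS. Over the start of E2f3, the region chr13:29983078-29987018 had percentiles of 98.7, 98.7 and 98.8 in untreated GFP cells, 99.4, 99.4 and 98.6 in GFP cells with LPS, 98.7, 98.7 and 98.3 in untreated Nur77 cells and 98.2, 99.0 and 99.2 in Nur77 cells with LPS. At the Pcna start (chr2:132252115-132253889) the percentiles were 97.5, 97.1 and 97.1 in untreated GFP cells, 98.5, 98.3 and 98.6 in GFP cells with LPS, 98.5, 98.4 and 99.0 in untreated Nur77 cells and 98.8, 98.2 and 98.5 in Nur77 cells with LPS. These are among the strongest regions of any library, and Cdt1, E2f3 and Pcna encode a helicase loader, an activating E2F and the replication clamp. The start of Cdk4 (chr10:127061756-127064629) stood at 96.5, 97.8 and 97.8 in untreated GFP cells, 97.2, 97.1 and 95.1 in GFP cells with LPS, 98.7, 94.7 and 98.3 in untreated Nur77 cells and 96.9, 97.0 and 96.9 in Nur77 cells with LPS. Over the start of E2f1, the region chr2:154568263-154572396 had percentiles of 93.7, 92.9 and 88.7 in untreated GFP cells, 91.2, 92 and 92 in GFP cells with LPS, 93.4, 95.1 and 96.9 in untreated Nur77 cells and 92.2, 95.6 and 90.5 in Nur77 cells with LPS. Cdk4 is a kinase that starts the phosphorylation of Rb1, and E2f1 is the founding activating E2F. The 12 libraries of a gene lay close together at this end of the scale.

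The 5 weakest starts were those of E2f6, Rbl1, E2f7, Bub1 and Ccnb2. At the E2f6 start (chr12:16810592-16812004) the percentiles were 20, 31.6 and 26.0 in untreated GFP cells, 23.6, 14.7 and 29.6 in GFP cells with LPS, 32.6, 28.7 and 35.9 in untreated Nur77 cells and 27.1, 22 and 29.2 in Nur77 cells with LPS. The start of Rbl1 (chr2:157203447-157205428) stood at 44.8, 24.2 and 37.8 in untreated GFP cells, 34.8, 22.1 and 26.1 in GFP cells with LPS, 51.7, 19.8 and 54.9 in untreated Nur77 cells and 33.2, 31.8 and 24.2 in Nur77 cells with LPS. Over the start of E2f7, the region chr10:110744796-110746026 had percentiles of 49.0, 50.3 and 49.6 in untreated GFP cells, 50.8, 29.3 and 30.4 in GFP cells with LPS, 60.0, 65.4 and 62.6 in untreated Nur77 cells and 47.2, 47.0 and 41.9 in Nur77 cells with LPS. E2f6 and E2f7 encode E2Fs that repress, and Rbl1 a pocket protein, whereas the start of E2f8, another repressive E2F, stood between 80.2 and 93.5 in the values given further on. At the Bub1 start (chr2:127831300-127833392) the percentiles were 48.0, 58.0 and 56.2 in untreated GFP cells, 59.7, 32.8 and 43.5 in GFP cells with LPS, 60.0, 58.2 and 54.9 in untreated Nur77 cells and 50.6, 46.1 and 41.9 in Nur77 cells with LPS. The start of Ccnb2 (chr9:70420894-70422322) stood at 48.0, 56.7 and 57.5 in untreated GFP cells, 29.4, 36.0 and 49.3 in GFP cells with LPS, 62.7, 59.5 and 68.8 in untreated Nur77 cells and 47.2, 53.3 and 52.7 in Nur77 cells with LPS. Bub1 is a kinase of the spindle checkpoint and Ccnb2 a mitotic cyclin. In each of the 5 the replicates of at least 1 group spread over more than 10 points, so the order among them is loose.

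Cdkn2a, which encodes inhibitors that act on Cdk4 and Cdk6 and on the p53 pathway, stood apart. No peak of any of the 12 lists touched the gene (chr4:89274473-89294619). The nearest region, chr4:89272100-89274403, ended 69 bp before the gene span and was called in all 12 libraries, and the next one began at position 90003601 and was called in 6. The 729 kb between them held no peak of any list and contained 3 protein-coding genes, Cdkn2a, Cdkn2b and Dmrta1. It was longer than 99.4% of the gaps between neighbouring regions. A list of peaks holds no value for DNA without peaks, so nothing more can be read from this stretch.

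Facts of the whole series that touch these results are few. The authors' lists held 61530 ± 6075 peaks (SD, n = 3) in untreated GFP cells, 62210 ± 17224 after LPS, 49095 ± 11182 in untreated Nur77 cells and 52514 ± 7541 after LPS. The shortest list was replicate 2 of untreated Nur77 cells and the longest replicate 3 of GFP cells with LPS. Of the 177 regions, 132 to 143 were called per untreated GFP library, 115 to 149 per GFP library with LPS, 114 to 146 per untreated Nur77 library and 118 to 142 per Nur77 library with LPS, and these ranges overlap. All 5 macrophage markers with a start in the table (Itgam, Cd68, Lyz2, Cebpa and Cebpb) had it called in all 12 libraries, as did 0 of 3 T cell, 0 of 2 B cell, 0 of 2 fibroblast, 0 of 3 epithelial and 1 of 3 neuronal markers, the last being Tubb3. The assay pools many cells, so a region open in fewer cells and a region less open in each cell cannot be told apart.

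The first comparison asked what 1 h of LPS changed. Averaged over both lines, 9 of the 93 regions ranked higher and 21 lower after LPS by limma at an adjusted p of 0.05, against 13.9% and 14.2% of all regions tested. Of the 33 regions over a start, 0 ranked higher and 9 lower (27.3%), and the rest did not pass. Of all start regions, 4.44% ranked higher and 14.8% lower. The median difference was -3.01 points for the 93 regions and -0.99 for all regions. The regions that ranked higher lay mostly at Cdk6, with 5 higher and 1 lower of its 8, and without that gene 4 of 85 regions ranked higher and 20 lower. The range without each library in turn was 26 to 37 called regions, against 30 with all of them.

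By role, 6 of 24 licensing and helicase regions ranked lower (25%) and 1 higher (4.17%). Of E2F and pocket protein regions, 1 of 24 ranked lower (4.17%) and 2 higher (8.33%). Of cyclin and kinase regions, 8 of 23 ranked lower (34.8%) and 5 higher (21.7%). Mitotic regions had 2 of 16 lower (12.5%) and 1 higher (6.25%), and inhibitor regions had 4 of 6 lower and 0 higher. All regions tested had 14.2% lower and 13.9% higher, so the mitotic share ranked lower lies near theirs. The 9 starts that ranked lower were those of Mcm6, Mcm7, E2f7, Cdk1, Cdk2, Cdk6, Ccnb1, Ccnb2 and Cdkn2c. Among these 9 genes, 5 had E2F letters in the promoter window, against 10 of the other 25 genes with a sequence. CHR letters were present in 3 of the 9 and in 10 of the 25.

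**Figure D2:**
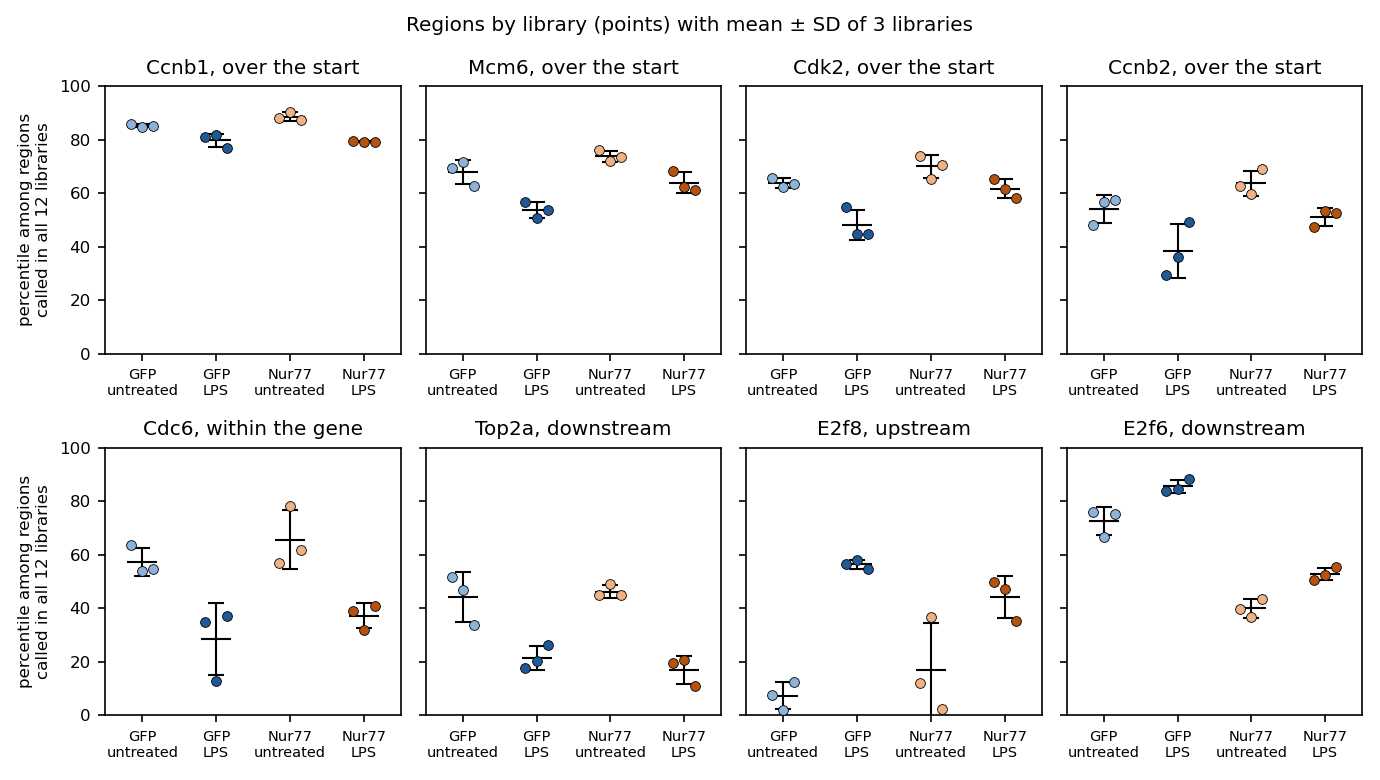
Percentile (vertical axis, 0 to 100) of 8 regions in each library (points, coloured by group) with the mean and SD of 3 libraries (bars). The starts of Ccnb1, Mcm6, Cdk2 and Ccnb2, the region inside Cdc6 and that downstream of Top2a have lower means with LPS in both lines, the region upstream of E2f8 has higher ones, and that downstream of E2f6 is lower in the Nur77 line.

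Among starts, that of the mitotic cyclin gene Ccnb1 had the lowest adjusted p. Over the start of Ccnb1, the region chr13:100785804-100787512 had percentiles of 85.7, 84.6 and 85.0 in untreated GFP cells, 80.9, 81.5 and 77.0 in GFP cells with LPS, 87.9, 90.4 and 87.4 in untreated Nur77 cells and 79.6, 79.2 and 79.1 in Nur77 cells with LPS. The 6 LPS libraries all lay below the 6 untreated ones, and the difference was -7.27 ± 1.26 points (SE, adjusted p = 0.000411). Ccnb1 encodes the cyclin that partners Cdk1 in mitosis. At the Cdk2 start (chr10:128703982-128705888) the percentiles were 65.7, 62.1 and 63.3 in untreated GFP cells, 54.7, 44.6 and 44.8 in GFP cells with LPS, 74.0, 65.4 and 70.4 in untreated Nur77 cells and 65.1, 61.6 and 58.0 in Nur77 cells with LPS. Each line ranked lower after LPS, but GFP and Nur77 levels differed enough that LPS and untreated libraries overlapped, and the difference was -11.98 ± 3.15 points (adjusted p = 0.00908). The start of Ccnb2, with the values given above, fell by 14.2 ± 4.02 points (adjusted p = 0.0144). A region downstream of Ccnb1, over the start of Cenph, was 19.6 ± 4.58 points lower (adjusted p = 0.00421), and another downstream of Cdk4, over the start of Tspan31, was 11.2 ± 3.26 points lower (adjusted p = 0.0167), a call lost without untreated GFP replicate 1. Cdk1 (-4.89 ± 1.62 points, adjusted p = 0.0332) and the start of Cdk6 (-8.83 ± 2.40, adjusted p = 0.0112) were lower as well, and the call for Cdk1 was lost without any of 6 libraries or with normal scores in place of percentiles.

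Some regions at licensing genes also ranked lower, and of their starts only those of Mcm6 and Mcm7 passed. The start of Mcm6 (chr1:128357341-128360370) stood at 69.4, 71.5 and 62.8 in untreated GFP cells, 56.5, 50.8 and 53.5 in GFP cells with LPS, 75.9, 71.9 and 73.4 in untreated Nur77 cells and 68.2, 62.3 and 61.1 in Nur77 cells with LPS. The Mcm6 start, whose promoter holds 3 E2F matches, was lower by a mean of 12.07 points (SE 2.78, adjusted p = 0.0039), and LPS and untreated libraries overlapped only across lines. A region in Cdc6 (chr11:98916083-98918964) stood at 63.4, 54.0 and 54.4 in untreated GFP cells, 34.8, 12.9 and 37.2 in GFP cells with LPS, 56.8, 78.0 and 61.7 in untreated Nur77 cells and 38.8, 31.8 and 40.6 in Nur77 cells with LPS. This region inside Cdc6, which loads the helicase, fell by 28.7 ± 4.97 points (adjusted p = 0.000412), and every LPS library was below every untreated one. The start of Cdc6 itself did not pass. At chr8:122560719-122561901, upstream of Cdt1, the percentiles were 49.9, 55.4 and 51.0 in untreated GFP cells, 37.4, 23.8 and 16.1 in GFP cells with LPS, 52.6, 58.2 and 60.9 in untreated Nur77 cells and 42.2, 48.0 and 39.3 in Nur77 cells with LPS. It lies 6.11 kb before Cdt1, between that gene and a stronger region, and fell by 20.2 ± 4.09 points (adjusted p = 0.0015) with no overlap of the LPS and untreated libraries. That stronger neighbour, over the start of Gm34847, rose by 7.08 ± 1.95 points (adjusted p = 0.0121). The region chr4:108618541-108620946, downstream of Orc1, had percentiles of 60.8, 75.1 and 69.5 in untreated GFP cells, 44.4, 56.9 and 44.8 in GFP cells with LPS, 70.0, 64.2 and 69.7 in untreated Nur77 cells and 64.3, 64.5 and 56.2 in Nur77 cells with LPS. That region covers the starts of Cc2d1b and Gm12743 downstream of Orc1 and fell by 13.03 ± 3.53 points (adjusted p = 0.011). The Mcm7 start, shared with Ap4m1, was lower by only 3.06 ± 1.06 points (adjusted p = 0.0403), a call lost without any of 7 libraries or with normal scores.

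The inhibitor genes had most of their tested regions lower. A region downstream of Cdkn1b (chr6:134926814-134930597) stood at 84.8, 86.3 and 87.3 in untreated GFP cells, 68.4, 76.7 and 71.0 in GFP cells with LPS, 90.7, 83.7 and 87.9 in untreated Nur77 cells and 77.8, 81.6 and 76.8 in Nur77 cells with LPS. It covers the start of Lockd, a noncoding neighbour of Cdkn1b, and fell by 11.4 ± 1.78 points (adjusted p = 0.000159), without overlap of the 2 treatments. At chr4:109675212-109677603, upstream of Cdkn2c, the percentiles were 92.3, 91.6 and 93.7 in untreated GFP cells, 86.9, 78.2 and 80.2 in GFP cells with LPS, 93.1, 92.7 and 95.8 in untreated Nur77 cells and 90.7, 90.5 and 89.7 in Nur77 cells with LPS. This region covers the start of Faf1 and fell by 7.18 ± 1.29 points (adjusted p = 0.000553), again without overlap. Over the start of Cdkn2c, the region chr4:109664848-109667735 had percentiles of 80.4, 81.1 and 78.2 in untreated GFP cells, 67.1, 64.0 and 71.6 in GFP cells with LPS, 78.7, 76.8 and 79.7 in untreated Nur77 cells and 72.5, 78.6 and 71.0 in Nur77 cells with LPS. The Cdkn2c start fell by 8.34 ± 2.05 points (adjusted p = 0.00601), and here the LPS and untreated libraries overlapped. The region chr4:109656894-109658163, downstream of Cdkn2c, had percentiles of 6.3, 17.4 and 11.2 in untreated GFP cells, 5.1, 2.2 and 1.0 in GFP cells with LPS, 22, 19.8 and 40.6 in untreated Nur77 cells and 6.4, 13.4 and 5.1 in Nur77 cells with LPS. The last of them is a weak region over the start of 9630013D21Rik, which fell by 14.01 points after LPS (SE 3.59, adjusted p = 0.00781). The start of Cdkn1b, which encodes the inhibitor that holds cells in quiescence, did not pass.

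Among the E2F genes, the start of E2f7, whose values are given above, fell by 15.04 ± 4.07 points (adjusted p = 0.0109). It was the only E2F start that passed for LPS.

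Regions at mitotic genes gave a mixed picture, and no mitotic start in the table passed for LPS averaged over both lines. Aurkb had no start in the table. A region downstream of Top2a (chr11:98981265-98983284) stood at 51.7, 46.9 and 33.7 in untreated GFP cells, 17.4, 20.3 and 26.1 in GFP cells with LPS, 44.7, 48.8 and 44.8 in untreated Nur77 cells and 19.5, 20.4 and 10.9 in Nur77 cells with LPS. The region lies downstream of Top2a, the topoisomerase that untangles sister chromatids, inside Gjd3, and it fell by 26.0 ± 3.82 points (adjusted p = 9.36e-05) with no overlap. At chr2:172378140-172378720, upstream of Aurka, the percentiles were 3.0, 17.4 and 6.2 in untreated GFP cells, 10.9, 18.4 and 11.6 in GFP cells with LPS, 25.0, 22.8 and 15.2 in untreated Nur77 cells and 1.5, 5.2 and 5.1 in Nur77 cells with LPS. It passed in the Nur77 line alone (-17.04 ± 4.33 points, adjusted p = 0.0145), and the test of the difference between lines gave an adjusted p of 0.352. The call in the Nur77 line was lost without untreated or LPS replicate 1 of that line. The region chr11:69058184-69065043, beside Aurkb, had percentiles of 93.8, 92.9 and 93.5 in untreated GFP cells, 95.5, 96.8 and 97.5 in GFP cells with LPS, 88.6, 88.8 and 95.1 in untreated Nur77 cells and 96.7, 96.3 and 95.7 in Nur77 cells with LPS. It covers the start of Borcs6 and rose by 4.32 ± 0.99 points (adjusted p = 0.00385), while the region touching Aurkb itself fell by 7.78 ± 2.15 (adjusted p = 0.0126).

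The largest rise of the 93 regions was before E2f8, an atypical E2F that represses E2F targets. A region upstream of E2f8 (chr7:48887445-48889291) stood at 7.5, 2.0 and 12.3 in untreated GFP cells, 56.5, 57.8 and 54.5 in GFP cells with LPS, 12, 36.5 and 2.4 in untreated Nur77 cells and 49.9, 47.0 and 35.2 in Nur77 cells with LPS. It lies 5.37 kb before the gene and rose by 38.05 ± 5.04 points (adjusted p = 3.45e-05). In the GFP line all LPS libraries were more than 40 points above all untreated ones, whereas in the Nur77 line untreated replicate 2, the one with the shortest list, stood within the range of the LPS libraries.

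**Figure D3:**
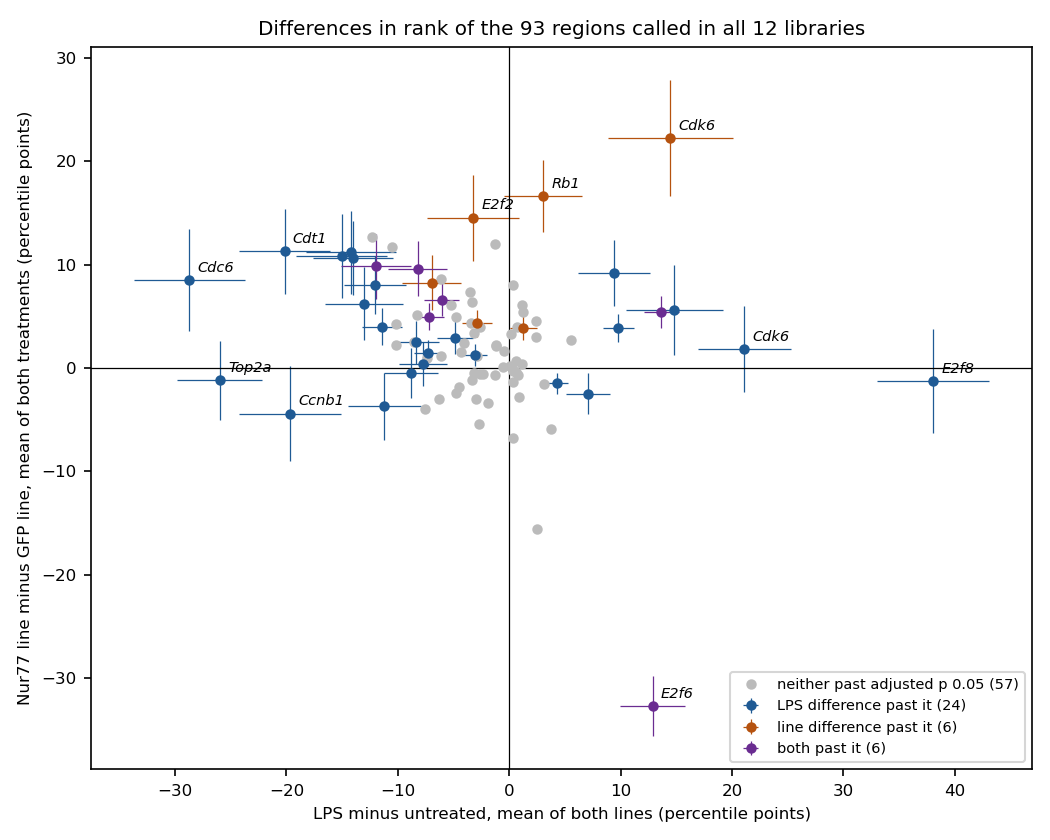
Difference in percentile after LPS (horizontal axis, mean of both lines) against the difference of the Nur77 line from the GFP line (vertical axis, mean of both treatments) for the 93 regions called in all 12 libraries, with SE bars for regions past an adjusted p of 0.05 in either. Most coloured points lie left of 0 on the LPS axis, E2f8 lies farthest right at 38.05 points, and E2f6 lies lowest at -32.7 points.

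Cdk6, a kinase that works with D-type cyclins, had 23 regions, the most of the 41 genes, over a span of 190005 bp. Gain and loss of calls were counted next, a gained region being called in all 3 libraries of a group and none of the other. In the GFP line LPS gained 3 of the 177 regions and lost 4, against 1.96% and 1.02% of all regions, and all 3 gained regions were inside Cdk6. In the Nur77 line 2 were gained and 1 lost, against 1.94% and 0.460%, and both gained regions were inside Cdk6. In each line the share of the 177 regions gained was below that of all regions, and none of the lost regions was at Cdk6. A region in Cdk6 (chr5:3386746-3387484) was called at list percentiles of 15.5, 31.3 and 50.5 in GFP cells with LPS and 36.8, 49.6 and 36.9 in Nur77 cells with LPS, and it was not called in untreated GFP cells or untreated Nur77 cells. At chr5:3394255-3395553, in Cdk6, list percentiles were 42.4, 27.3 and 53.4 in GFP cells with LPS and 50.5, 46.3 and 53.7 in Nur77 cells with LPS, and it was not called in untreated GFP cells or untreated Nur77 cells. Each of these was found in every LPS library (6) and in no untreated one, a pattern shown by 0.568% of all regions. The region chr5:3508430-3510167, in Cdk6, had list percentiles of 49.4, 54.9 and 62.7 in GFP cells with LPS, 15.8 and 19 in 2 libraries of untreated Nur77 cells and 68.6, 48.0 and 48.5 in Nur77 cells with LPS, and it was not called in untreated GFP cells. It was therefore gained in the GFP line only by this count, since the untreated Nur77 cells already had it in 2 libraries at lower percentiles. The gene table gives no exons, so whether these regions are intronic was not determined.

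**Figure D4:**
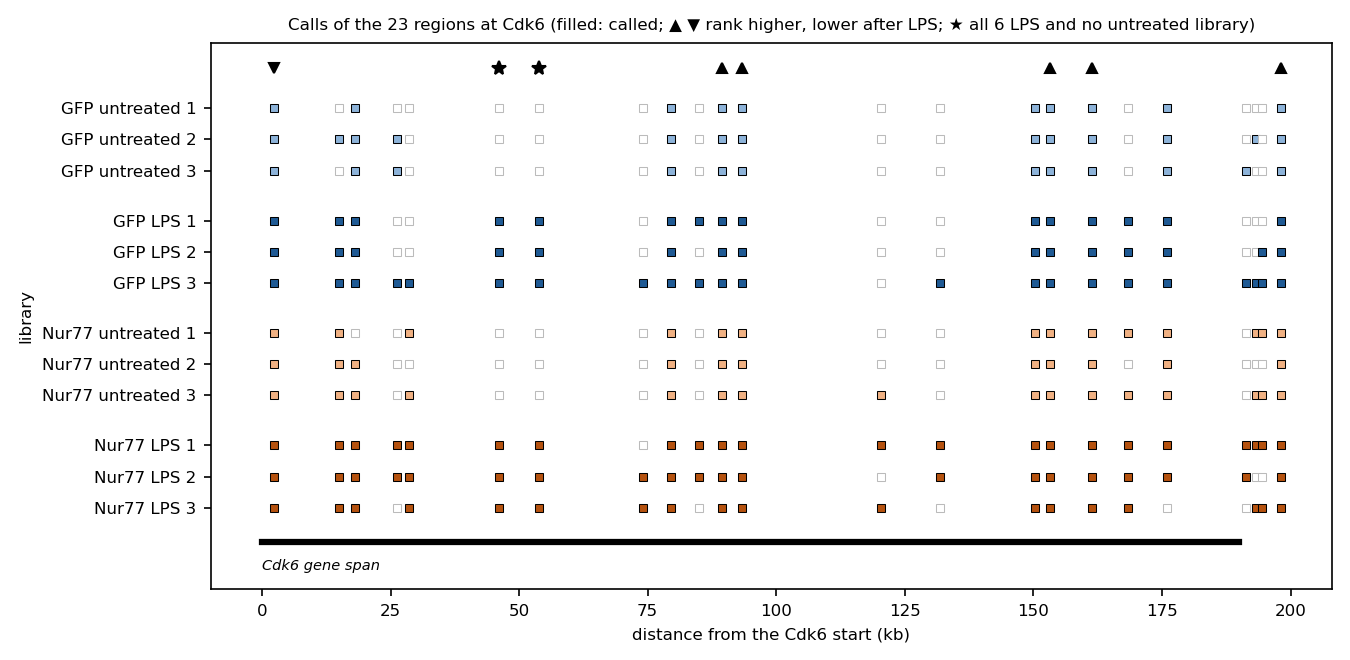
Calls (filled squares) of the 23 regions at Cdk6 by distance from the gene start in kb (horizontal axis) in the 12 libraries (rows, coloured by group), with symbols above for regions that rank higher or lower after LPS or are called only with LPS. The start region is called everywhere and ranks lower, 5 regions in the gene body or past its end rank higher, and 2 are called in the 6 LPS libraries alone.

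The strong regions of the Cdk6 body rose in rank together with those gains. At chr5:3501089-3503552, in Cdk6, the percentiles were 67.9, 72.3 and 72.1 in untreated GFP cells, 87.3, 84.9 and 87.5 in GFP cells with LPS, 77.4, 82.0 and 75.7 in untreated Nur77 cells and 88.0, 90.1 and 91.5 in Nur77 cells with LPS. Every LPS library was above every untreated one, by 13.65 ± 1.55 points on average (adjusted p = 7.44e-06). The region chr5:3492970-3495359, in Cdk6, had percentiles of 82.0, 75.1 and 81.2 in untreated GFP cells, 93, 92.3 and 92.2 in GFP cells with LPS, 86.6, 89.8 and 83.2 in untreated Nur77 cells and 91.8, 94 and 93.4 in Nur77 cells with LPS. For this neighbour the difference was 9.81 ± 1.37 points (adjusted p = 5.61e-05), also without overlap. A region in Cdk6 (chr5:3433247-3435355) stood at 18.4, 9.7 and 16.8 in untreated GFP cells, 29.4, 42.0 and 38.6 in GFP cells with LPS, 16.2, 19.8 and 16.2 in untreated Nur77 cells and 40.6, 49.0 and 24.2 in Nur77 cells with LPS. It rose by 21.1 ± 4.17 points (adjusted p = 0.00119), and a weak region close by, chr5:3429745-3430997, rose by 9.41 ± 3.21 points (adjusted p = 0.0376). At chr5:3429745-3430997, in Cdk6, the percentiles were 2.1, 0.6 and 0.2 in untreated GFP cells, 7.9, 0.1 and 1.0 in GFP cells with LPS, 1.5, 4.0 and 2.9 in untreated Nur77 cells and 20.6, 30.3 and 7.9 in Nur77 cells with LPS. That call rests on the Nur77 line, where the LPS libraries stood at 7.9 to 30.3, and it was lost under most of the libraries left out. The last of the 5, past the end of the gene, rose by 14.8 ± 4.34 points (adjusted p = 0.0175), a call lost without untreated Nur77 replicate 3.

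Calls lost with LPS concerned weak regions near other genes. A region downstream of Mcm5 (chr8:75131755-75132925) was called at list percentiles of 6.3, 11.7 and 2.0 in untreated GFP cells and 11.4 and 5.0 in 2 libraries of untreated Nur77 cells, and it was not called in GFP cells with LPS or Nur77 cells with LPS. At chr2:154551837-154553003, downstream of E2f1, list percentiles were 41.7, 36.4 and 21.9 in untreated GFP cells and 15.8 and 8.4 in 2 libraries of untreated Nur77 cells, and it was not called in GFP cells with LPS or Nur77 cells with LPS. The region chr8:105306009-105307382, beside E2f4, had list percentiles of 11, 6.8 and 9.5 in untreated GFP cells and 10.8 in 1 library of untreated Nur77 cells, and it was not called in GFP cells with LPS or Nur77 cells with LPS. A region downstream of Cdc25a (chr9:109897994-109898547) was called at list percentiles of 25.7, 11.7 and 31.3 in untreated GFP cells, 20.5 and 24.6 in 2 libraries of untreated Nur77 cells and 9.1 in 1 library of Nur77 cells with LPS, and it was not called in GFP cells with LPS. These 4 were called in all untreated GFP libraries and no GFP library with LPS, near a helicase subunit, 2 E2Fs and the phosphatase that activates Cdk2, and all but that at E2f1 stayed at or under 31.3 in every library. At chr7:135683854-135684711, downstream of Mki67, list percentiles were 27.7, 11.4 and 24.6 in untreated Nur77 cells, and it was not called in untreated GFP cells, GFP cells with LPS or Nur77 cells with LPS. This region near Mki67, the proliferation marker, was called in the 3 untreated Nur77 libraries only, so it counts both as lost with LPS in the Nur77 line and as gained in the Nur77 line before LPS. With a library left out, only the remaining libraries of its group had to meet the rule, which is looser and can raise these counts. Under it, losses in the GFP line numbered 7 without its LPS replicate 3. Gains numbered 5 in the GFP line without its LPS replicate 1 and 6 in the Nur77 line without its LPS replicate 3. Losses in the Nur77 line numbered 9, 5, 3 and 2 without its untreated replicate 2, untreated replicate 3, LPS replicate 1 or untreated replicate 1, in that order.

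**Figure D5:**
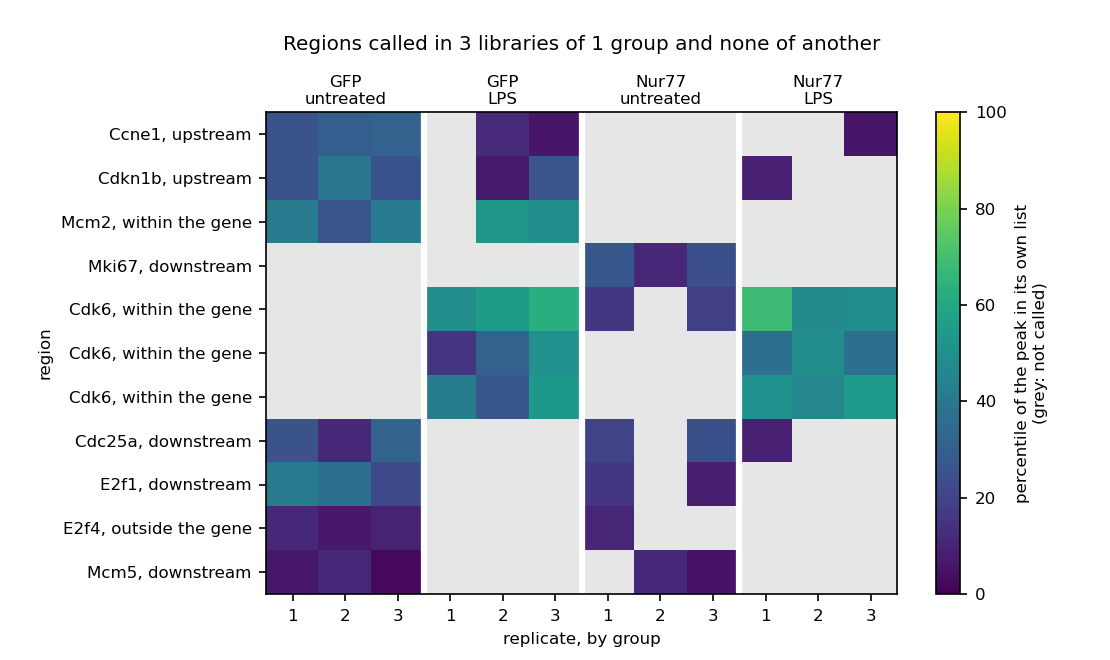
Percentile of the strongest peak in its own list (colour, 0 to 100) for the 11 regions gained or lost with LPS within a line or between the lines at the same treatment, with grey for libraries that did not call the region. The 3 Cdk6 rows are filled in the LPS columns, and most other rows are filled in the untreated GFP columns at low percentiles.

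Separated by line, limma called 5 regions higher and 16 lower after LPS in the GFP line, against 10.3% and 8.54% of all regions, and 7 higher and 8 lower in the Nur77 line, against 8.28% and 5.95%. The lines shared 9 called regions, which is 42.9% of the 21 in the GFP line and 60.0% of the 15 in the Nur77 line. The test of the difference between the lines' responses called 0 of the 93 regions, and 0.0190% of all regions. At an unadjusted p under 0.05 it had 8 of the 93, against 8.25% of all regions, a share near the same. The 21 calls of the GFP line became 13, 11 and 11 without untreated replicate 1, untreated replicate 2 or LPS replicate 2 of that line, in that order. The 15 calls of the Nur77 line became 6, 7, 7, 7 and 9 without its untreated replicates 1 or 3 or its LPS replicates 1, 2 or 3, in that order. Permutation of 3 libraries against 3 cannot give an exact two-sided p below 0.1, so no test of single regions within a line was made outside the fit across all regions.

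Fisher's exact test on calls, 6 libraries against 6, covered the 31 regions of these genes called in 4 to 8 libraries, of 20292 in all. No region passed after Benjamini-Hochberg adjustment, at these genes or anywhere else (0.00% for LPS and 0.00% for the line), and the lowest adjusted p was 0.0935 for LPS and 0.0923 for the line. At an unadjusted p under 0.05 the LPS test had 2 regions called more often with LPS and 2 less often at these genes, where 7.04% of all tested regions passed, namely the Cdk6 regions called in all 6 LPS libraries and the regions downstream of Mcm5 and E2f1. The line test had 1 region called less often in the Nur77 line, inside Mcm2, where 7.97% of all passed.

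The second comparison set the Nur77 line against the GFP line. Averaged over treatments, 11 of the 93 regions ranked higher in the Nur77 line and 1 lower, against 7.46% and 9.80% of all regions, with a median difference of 2.44 points (0.57 for all regions). Over starts, 3 of 33 ranked higher and 0 lower, against 6.95% and 4.70% of all start regions. Before LPS 5 ranked higher and 1 lower (2.92% and 4.91% of all), and after LPS 5 and 2 (3.13% and 5.47%). The Nur77 lists were shorter on average, and with list length as a covariate the count before LPS was 3 in place of 6. For the average over treatments that covariate gave 9 higher and 1 lower, and the set of regions changed as well. The starts of Mcm3 and Cdk2 lost their calls, so of the 3 starts only that of E2f8 kept it. Also lost were the calls upstream of Cdkn2c, beside Foxm1 and at the Cdk6 region that also ranked higher after LPS. The 6 calls before LPS became 2, 3 and 2 without untreated GFP replicates 1 or 3 or untreated Nur77 replicate 1, and the 7 after LPS became 4, 4, 2, 2 and 4 without untreated GFP replicate 2, GFP LPS replicate 2 or Nur77 LPS replicates 1, 2 or 3.

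The single lower region was at E2f6, which encodes a repressive E2F found with Polycomb proteins and which is the only listed gene on chromosome 12. The region chr12:16835597-16836955, downstream of E2f6, had percentiles of 76.0, 66.6 and 75.2 in untreated GFP cells, 83.6, 84.6 and 88.1 in GFP cells with LPS, 39.5, 36.5 and 43.5 in untreated Nur77 cells and 50.6, 52.4 and 55.3 in Nur77 cells with LPS. It lies 8.85 kb past the gene. Every Nur77 library was below every GFP library, by 32.7 ± 2.93 points (adjusted p = 2.41e-06), while LPS raised it by 12.9 ± 2.93 points (adjusted p = 0.00352) over both lines. Chromosome 12 as a whole was lower in the Nur77 line, with 665 of 1054 regions called lower, 9 higher and a median of -10.61 points. The E2f6 region differed in the same direction, and by more points than that median. The part of that wider shift in the E2f6 value was not tested.

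The other E2f6 regions were less clear. A region upstream of E2f6 (chr12:16807292-16808663) stood at 28.0, 50.3 and 48.1 in untreated GFP cells, 29.4, 60.6 and 37.2 in GFP cells with LPS, 20.5, 16.6 and 35.9 in untreated Nur77 cells and 31.2, 25.4 and 30.8 in Nur77 cells with LPS. The start, with values given above, was at 25.9 ± 5.77 (SD, n = 3) in untreated GFP cells and 32.4 ± 3.58 in untreated Nur77 cells. The region chr12:16805404-16806036, upstream of E2f6, had list percentiles of 58.2 and 60.3 in 2 libraries of untreated GFP cells, 46.1 and 65.8 in 2 libraries of GFP cells with LPS and 41.2 in 1 library of untreated Nur77 cells, and it was not called in Nur77 cells with LPS. A region downstream of E2f6 (chr12:16829511-16831267) was called at list percentiles of 66.1, 56.9 and 63.1 in untreated GFP cells, 38.2, 56.6 and 72.3 in GFP cells with LPS, 33.7 and 33.8 in 2 libraries of untreated Nur77 cells and 42.7, 21.3 and 6.0 in Nur77 cells with LPS. Those percentiles are ranks in the own list, since neither region was called in all 12 libraries. Without chromosome 12, 11 of 90 regions ranked higher in the Nur77 line and 0 lower, against 7.73% and 7.58% of all regions off that chromosome.

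By role, 2 of 24 licensing and helicase regions (8.33%), 3 of 24 E2F and pocket protein regions (12.5%), 4 of 23 cyclin and kinase regions (17.4%), 1 of 16 mitotic regions (6.25%) and 1 of 6 inhibitor regions ranked higher in the Nur77 line, against the 7.46% of all regions, so the first and the fourth of these shares lie near it. At chr14:73237520-73239429, in Rb1, the percentiles were 30.9, 39.3 and 33.7 in untreated GFP cells, 44.4, 45.9 and 38.6 in GFP cells with LPS, 57.4, 59.5 and 52.8 in untreated Nur77 cells and 50.6, 57.0 and 55.3 in Nur77 cells with LPS. The region lies in the span of Rb1 and covers the start of Lpar6. It was higher in all Nur77 libraries than in any GFP library, by 16.6 ± 3.48 points (adjusted p = 0.00354). The region chr14:73324450-73327044, in Rb1, had percentiles of 26.5, 32.8 and 33.7 in untreated GFP cells, 26.6, 29.3 and 27.9 in GFP cells with LPS, 48.3, 58.2 and 52.2 in untreated Nur77 cells and 42.9, 37.2 and 14.2 in Nur77 cells with LPS. This second region crosses the edge of the span of Rb1, the retinoblastoma gene, at position 73325951. Rb1 had no start in the table, so whether the region covers its start was not determined. For the line it passed before LPS only (21.9 ± 6.46 points, adjusted p = 0.0493) and lost the call under 15 alternatives. The same region also passed as lower after LPS in the Nur77 line, a call lost under 6 alternatives.

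A region in Ccne2 (chr4:11189954-11192619) stood at 88.2, 85.2 and 87.6 in untreated GFP cells, 75.1, 81.1 and 83.9 in GFP cells with LPS, 90.9, 95.6 and 91.7 in untreated Nur77 cells and 88.1, 90.6 and 83.9 in Nur77 cells with LPS. It crosses the edge of the span of Ccne2, which encodes a cyclin of the entry into replication, at position 11190433. Ccne2 had no start in the table, so the region was not counted among starts. It was higher in the Nur77 line by 6.61 ± 1.59 points (adjusted p = 0.00908) and fell by 6.07 ± 1.59 points after LPS (adjusted p = 0.00903). At chr5:3419383-3421741, in Cdk6, the percentiles were 36.5, 9.7 and 13.4 in untreated GFP cells, 20.6, 25.5 and 45.5 in GFP cells with LPS, 26.3, 38.7 and 49.9 in untreated Nur77 cells and 54.2, 57.7 and 58.0 in Nur77 cells with LPS. Inside Cdk6, this region was higher in the Nur77 line by 22.3 ± 5.63 points (adjusted p = 0.0122), with overlap between the lines. Along with those of E2f6 and Lpar6, these calls held under every alternative tried. At chr5:3355293-3356591, in Cdk6, list percentiles were 6.8 in 1 library of untreated GFP cells, 33.6, 46.5 and 61.9 in GFP cells with LPS, 58.9, 43.7 and 65.4 in untreated Nur77 cells and 89.7, 84.2 and 89.0 in Nur77 cells with LPS. That region at Cdk6, chosen after its values were seen, was called in 1 untreated GFP library, all GFP libraries with LPS and all 6 Nur77 libraries. The main test of rank took only regions called in all 12 libraries, so it did not cover this one.

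Other calls for the line were smaller or less firm. The region chr2:132247103-132249058, downstream of Pcna, had percentiles of 68.9, 76.0 and 76.5 in untreated GFP cells, 62.9, 54.0 and 68.2 in GFP cells with LPS, 82.1, 75.5 and 80.8 in untreated Nur77 cells and 75.7, 72.8 and 77.2 in Nur77 cells with LPS. It covers the start of Tmem230 next to Pcna and was higher in the Nur77 line by 9.61 ± 2.64 points (adjusted p = 0.0199) and fell by 8.21 ± 2.64 points after LPS (adjusted p = 0.0286). The call for the line was lost without untreated GFP replicate 1 or untreated Nur77 replicate 1, and that for LPS without any of 6 libraries. A region upstream of E2f2 (chr4:136163054-136164139) stood at 26.5, 20.2 and 18.0 in untreated GFP cells, 5.1, 31.1 and 19.8 in GFP cells with LPS, 40.5, 36.5 and 32.4 in untreated Nur77 cells and 33.2, 28.7 and 36.6 in Nur77 cells with LPS. For this region before E2f2 the difference was 14.5 ± 4.15 points (adjusted p = 0.0241), a call lost without any of 5 libraries. At the Mcm3 start (chr1:20819680-20820914) the percentiles were 79.3, 83.7 and 80.3 in untreated GFP cells, 84.8, 85.8 and 86.0 in GFP cells with LPS, 88.6, 88.8 and 87.1 in untreated Nur77 cells and 85.4, 84.9 and 88.5 in Nur77 cells with LPS. The Mcm3 start was higher by 3.90 ± 1.19 points (adjusted p = 0.0333), and this call was lost under 11 alternatives, among them list length as a covariate. The start of E2f8 (chr7:48880320-48882991) stood at 91.7, 89.1 and 90.2 in untreated GFP cells, 80.2, 86.7 and 89.8 in GFP cells with LPS, 93.2, 93.5 and 91.6 in untreated Nur77 cells and 92.3, 91.3 and 91.6 in Nur77 cells with LPS. At the E2f8 start the lines differed by 4.32 ± 1.31 points (adjusted p = 0.0324), with the lowest value in GFP LPS replicate 1, and the call was lost without any of 7 libraries. At chr11:98929119-98935537, downstream of Cdc6, the percentiles were 91.5, 91 and 84.7 in untreated GFP cells, 92.7, 89.4 and 87.8 in GFP cells with LPS, 88.6, 87.6 and 89.4 in untreated Nur77 cells and 83.3, 84.3 and 83.7 in Nur77 cells with LPS. This downstream region, in the span of Rara, was lower in the Nur77 line after LPS by 6.23 ± 1.81 points (adjusted p = 0.044), a call lost without any of 8 libraries or with normal scores.

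Calls separated the lines at few regions. Before LPS the Nur77 line gained 1 region and lost 3, against 0.308% and 3.40% of all regions, and after LPS it gained 0 and lost 0, against 0.304% and 2.18%. The region chr6:88893510-88893970, in Mcm2, had list percentiles of 41.7, 26.2 and 41.1 in untreated GFP cells and 53.0 and 49.0 in 2 libraries of GFP cells with LPS, and it was not called in untreated Nur77 cells or Nur77 cells with LPS. A region upstream of Cdkn1b (chr6:134916711-134917728) was called at list percentiles of 25.7, 39.2 and 25.3 in untreated GFP cells, 7.2 and 26.5 in 2 libraries of GFP cells with LPS and 9.1 in 1 library of Nur77 cells with LPS, and it was not called in untreated Nur77 cells. At chr7:38109680-38110319, upstream of Ccne1, list percentiles were 25.7, 29.9 and 31.3 in untreated GFP cells, 12.2 and 6.0 in 2 libraries of GFP cells with LPS and 6.0 in 1 library of Nur77 cells with LPS, and it was not called in untreated Nur77 cells. They lie inside the helicase gene Mcm2, before the inhibitor Cdkn1b and before Ccne1, an activator of Cdk2, and after LPS each was called in 2 GFP libraries, those at Cdkn1b and Ccne1 also in 1 Nur77 library. Counts with a library left out again follow the looser rule, in which only the remaining libraries of its group had to meet it. Before LPS the gains numbered 7, 3 and 2 without untreated Nur77 replicates 2 or 3 or untreated GFP replicate 2. The losses before LPS numbered 7 and 5 without untreated GFP replicates 1 or 2. After LPS the gains numbered 2 without GFP LPS replicate 3 or Nur77 LPS replicate 2, and the losses 1 without GFP LPS replicates 1 or 2.

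A further 61 genes of replication and division, such as the remaining subunits of the origin complex, replication factor C, the polymerases and the kinetochore, had 221 regions, 113 of them called in all 12 libraries. After LPS 2 ranked higher (1.77%) and 31 lower (27.4%), against 13.9% and 14.2% of all regions. Of 48 start regions 1 ranked higher (2.08%) and 13 lower (27.1%), against 4.44% and 14.8% of all start regions. The lowest adjusted p belonged to a region near Fzr1, an activator of the anaphase-promoting complex, with -19.2 ± 2.33 points (adjusted p = 1.49e-05). A region near Rfc2, a subunit of the clamp loader, followed with -19.4 ± 2.55 points (adjusted p = 3.23e-05), and then a region near Cdc25b with -9.04 ± 1.42 points (adjusted p = 0.000171). The exceptions were a region near Cks2 (16.6 ± 4.75 points, adjusted p = 0.0151) and the start of Lin54, a DNA-binding subunit of MuvB (8.12 ± 2.67 points, adjusted p = 0.0318). Between the lines 6 ranked higher (5.31%) and 10 lower (8.85%) in Nur77 cells, both below the 7.46% and 9.80% of all regions. These counts and shares include chromosome 12. Of the lower ones, only regions near Rrm2 lie on that chromosome, with -24.3 ± 3.89 and -29.6 ± 4.01 points. Most of the lower ones lie on other chromosomes. The largest difference among them was that of a region near Wee1 on chromosome 7 (-43.4 ± 3.73 points, adjusted p = 1.75e-06).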

How the data were processed

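ATAC-seq peak lists of 12 libraries, in 4 groups of 3 taken from the titles, were used. Per the labels' protocols, nuclei were tagmented and only fragments below 700 bp were retained. The genome build (mm10), cutadapt 2.6 and DiffBind 3.0.15 come from the submitters' processing notes. The aligner and the program that called peaks were not given in the sources used here. Names in the authors' files record that mitochondrial and duplicate reads were taken out. The deposited score is the authors' whole number per peak, the fold is the authors' enrichment ratio of a peak, and the −log10 p and −log10 q are the authors' values at the summit. They served only to rank or filter peaks within a list. Read depth is not part of the lists, so no interval on counts was given.

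Rows of equal start and end were collapsed, and coordinates are 1-based. A region was called by an overlap of at least 1 bp. Gene spans, starts and promoters came from RefSeq tables of GRCm38.p6. Ranks were fitted with limma 3.58.1 (R 4.3.3, trend, 4 group means) on percentiles of the 26378 regions called in all 12 libraries, with Benjamini-Hochberg adjustment over all of them. Calls were tested by two-sided Fisher's exact test. Scripts used scipy 1.17.1, pandas 2.3.3, numpy 2.4.6, matplotlib 3.10.9 and Python 3.11.15 and were tested on simulated data. The members, gene lists and motifs were chosen with earlier results of these data known. Named regions are those that were gained, lost or past 0.05 (up to 10 per contrast by adjusted p), the 5 highest and 5 lowest starts, all starts lower after LPS and those of E2f6. Other called regions given by their difference alone, and the further genes named, were named after their values were seen. Replicate numbers were not used to pair the libraries, since the labels state no pairing. Of 18 same-number correlations 2 passed 0.1 (range -0.180 to 0.161), and with 3 libraries per group these cannot exclude a pairing.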

Additional observations from a re-analysis of the deposited data

How the results depend on the processing

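No called difference reversed. Of 91 calls on 39 regions, 43 were kept under every alternative for ranks and 48 were lost under at least 1, mostly with a library left out. Ranking by the authors' fold gave the same order as ranking by −log10 q. With lists cut to 36184 peaks there were 117 regions at these genes, 3 lost with LPS in the Nur77 line, 1 lost in the Nur77 line before LPS and 2 past Fisher's test for LPS. With −log10 q of at least 5, the gains of the Nur77 line before LPS were 2. When peaks had to cover 50% of a region, 49 regions were called in all 12 libraries, LPS gained 1 in the GFP line and 1 in the Nur77 line, and lost 3 in the latter. Within 2 kb there were 106 regions, 59 called in all 12, LPS losses of 1 (GFP) and 0 (Nur77), and line gains of 0 and losses of 1 before LPS. Within 50 kb there were 436 regions, 206 called in all 12, LPS losses of 7 (GFP) and 4 (Nur77), LPS gains of 7 (Nur77), line gains of 2 and losses of 6 before LPS and losses of 2 after it. There limma called 39 (LPS, GFP), 30 (LPS, Nur77), 14 and 12 (line before and after LPS), 23 (line, average) and 59 (LPS, average). For the line before LPS, limma called 2 with normal scores, 3 with list length as covariate and 3 without the shortest and longest list, an alternative chosen after seeing the data. The cause was not tested.

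Leaving out each library in turn gave 172 to 177 regions, with 93 to 97 regions and 33 starts called in every library left. That requirement is looser than a call in all 12. Gains and losses ran from 3 to 5 and 3 to 7 (LPS, GFP), 2 to 6 and 1 to 9 (LPS, Nur77), 1 to 7 and 3 to 7 (line before LPS) and 0 to 2 and 0 to 1 (line after LPS). Only the libraries left in a group had to meet the rule, which is looser and can raise these counts. Calls by limma ran from 11 to 24 (LPS, GFP), 6 to 17 (LPS, Nur77), 2 to 6 and 2 to 9 (line before and after LPS), 8 to 15 (line, average), 26 to 37 (LPS, average) and 0 (difference of responses). With the replicate number as a block, limma called 21, 14, 4, 5, 11, 30 and 0 in that order, and no pairing is shown by the labels or the data. Counts of calls could not be fitted with the block. Read depth is unknown, so a region missing from a short list may lie under the calling threshold.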
